A study of Mus musculus with 8 samples.

Results

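The class I and class II histone deacetylases were followed through neural differentiation of mouse embryonic stem (ES) cells, both in total RNA and in RNA bound by Argonaute (Ago). The genes were chosen by name, as every probe that the array annotation assigns to Hdac1 through Hdac10. They make up 10 of the 36163 gene names on the array, and 15 of its 55681 probes read them. Class I holds 4 genes (Hdac1, Hdac2, Hdac3 and Hdac8), read by 7 probes. Class II holds 6 genes, read by 8 probes, and is divided into class IIa (Hdac4, Hdac5, Hdac7 and Hdac9) and class IIb (Hdac6 and Hdac10).

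The cells were the ES line E14Tg2A of the mouse, and the labels name no genetic change or drug for any group. They were collected undifferentiated in serum and LIF at 0 days in vitro (ES), as floating aggregates in serum-free N2/B27 medium at 2 days (epiblast-like aggregates, ELA), as adherent neural progenitors at 6 days (NPC), and as neural precursors at 10 days after the final days without B27 (NPC/Neu). At each stage 1 array received RNA precipitated from the cytosol with an antibody that recognizes all Ago proteins (Ago-RNA), and 1 array received total RNA. Each array thus carries 1 condition, and the RNA on it was pooled from 3 independent experiments, so no value below has a replicate and no test was made.

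Histone deacetylases remove acetyl groups from lysines, of histones and of many other proteins. Class I enzymes are mostly nuclear and act within large corepressor complexes, and Hdac1 and Hdac2 are a closely related pair that can stand in for each other. Class IIa proteins carry a long amino-terminal region that binds MEF2 transcription factors, and they move between nucleus and cytoplasm when kinases and 14-3-3 proteins act on them. Class IIb members are largely cytoplasmic. Ago proteins carry microRNAs, short RNAs that pair with messenger RNAs mainly through bases 2 to 8 (the seed) and reduce their translation or stability.

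The values were measured with probes of 60 bases, most of which lie at the 3′ end of the transcript. In coding transcripts of GENCODE on mm9, the build of the array annotation, 3 of the 15 probes match only coding sequence, and these are shown because what the array reads for Hdac2 and Hdac8 rests on them alone. Capitals mark the bases that come from the second of the exons a probe spans.
Hdac2 probe: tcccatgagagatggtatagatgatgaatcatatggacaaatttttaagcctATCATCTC
Hdac8 probe in exon 1: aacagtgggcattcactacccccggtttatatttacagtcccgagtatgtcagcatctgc
Hdac8 probe across exons 9 and 10: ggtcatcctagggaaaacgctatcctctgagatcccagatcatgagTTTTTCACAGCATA
The Hdac2 probe lies on the plus strand at chr10:36713455-36713506 in exon 7 and chr10:36713582-36713589 in exon 8 of 14. The Hdac8 probes lie on the minus strand, at chrX:99700320-99700379 for the first, and at chrX:99597924-99597969 and chrX:99503070-99503083 for the second. Over the genome, no other stretch of at least 45 bases with at least 90% identity was found for the probes of 9 of the 10 genes. Hdac1 was the exception. All 3 of its probes have such copies elsewhere, 1 of them with 7 copies and 4 for each of the others. The brightest of the 3 is also identical to a second gene model, Gm10093 on chromosome 17. Another matches the Hdac1 locus itself at 96.7% of its bases only, against a best identity of 100% elsewhere. It has no exact match in the Hdac1 transcript. Signal of Hdac1 and of its copies cannot be told apart at these probes.

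The microRNAs shown next were listed because they are known for the stages studied, miR-294-3p and miR-17-5p in ES cells and let-7a-5p and miR-9-5p in later and neural cells, and their seeds are in capitals (mature sequences from RefSeq, GRCm38.p6).
miR-294-3p: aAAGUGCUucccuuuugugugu
miR-17-5p: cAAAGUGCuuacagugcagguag
let-7a-5p: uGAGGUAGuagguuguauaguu
miR-9-5p: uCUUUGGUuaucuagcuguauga
The word that pairs with each seed was searched on the transcript strand of the 3′ UTR, in the transcript with the longest coding sequence. For miR-294-3p this word is AGCACTT, and it overlaps that of miR-17-5p, which is GCACTTT. For let-7a-5p it is CTACCTC, and for miR-9-5p it is ACCAAAG. Few members hold one. The words of miR-294-3p (chr12:35057171-35057177) and miR-17-5p (chr12:35057170-35057176) occur once each, on the minus strand, at overlapping positions in the 3′ UTR of Hdac9. The word of let-7a-5p occurs once, in the 3′ UTR of Hdac10 (chr15:88953765-88953771, minus strand), and that of miR-9-5p in 0 of the 10. The stretches around the matches are as follows, with the word in capitals.
Hdac9, miR-294-3p word: cagggagacatAGCACTTttgccaaatata
Hdac9, miR-17-5p word: agggagacataGCACTTTtgccaaatatag
Hdac10, let-7a-5p word: ccaggcgtcctCTACCTCcagaacaataaa
Of the 3′ UTRs of 13839 measured genes, 13.4% hold the word of miR-294-3p, 11.7% that of miR-17-5p, 8.37% that of let-7a-5p and 11.1% that of miR-9-5p. Among 3′ UTRs of 2000 to 3000 bases, as that of Hdac9 (2324 bases), the shares were 27.2% for miR-294-3p and 23.1% for miR-17-5p. Among those of 100 to 200 bases, as that of Hdac10 (159 bases), the share for let-7a-5p was 0.638%.

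All 10 genes were well above background on all 8 arrays, and none of their spots was saturated. One array stood apart in brightness, ES Ago-RNA, with an upper quartile of the raw spot signal of 3039 against 1060 to 1774 for the other 7 (the signals were normalized before use), and 18636 gene names were measured (at least 1 probe well above background) on all 8. The stage labels were checked with marker genes in total RNA. In ELA, 7 of 8 pluripotency markers were lower than in ES cells by at least 2-fold. Of 5 primed epiblast markers, only 2 were higher there by that much (Dnmt3b, 1.32). In NPC/Neu, 1 of these 5 was higher and 3 were lower by at least 2-fold. Against ES cells, 8 of 8 pluripotency markers were lower by at least 2-fold in NPC/Neu, with Fgf4 at a log2 change of -6.29. By contrast, 5 of 5 neural progenitor markers (Hes5, 7.22) and 5 of 5 neuron markers (Map2, 4.96) were higher by at least 2-fold. Of 5 glia and 8 endoderm and mesoderm markers, 2 each were higher by that much (Olig2, 2.83; T, 2.12). RNAs that stay in the nucleus were lower in Ago-RNA than in total RNA at every stage, in 5 of 5 cases. Ago association (E) below is log2 Ago-RNA minus log2 total RNA of a stage, and ΔE is E at the later minus E at the earlier stage. As a measure of error, the spot SD was taken from 246 probes printed in 10 spots each. It was 0.20 to 0.22 for E, 0.29 to 0.30 for ΔE and 0.21 for a change of total RNA, all in log2 units. It covers spots of an array and not cultures or precipitations.

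The classes parted in total RNA. From ES to NPC/Neu all 6 class II genes were higher, by log2 changes of 0.27 (Hdac10) to 2.21 (Hdac9), each more than the spot SD (Hdac6 alone was at -0.09 under another scaling, given with that gene), and their median change was 1.22. The 4 class I genes changed by -1.03 (Hdac1) to 0.41 (Hdac3), with a median of -0.30. The ranges overlap, since Hdac3 lies above Hdac10. Hdac9 was read by 1 probe, in the 3′ UTR of short transcripts, as given with that gene. The median of all gene names was -0.05, and 47.1% of them had a change above 0, against 8 of the 10 deacetylases. A change of at least 1 (2-fold) was seen upward for 3 members, Hdac5, Hdac7 and Hdac9, where the share of all gene names was 16%, and downward for 1, Hdac1, where it was also 16%. In RNA from whole cultures, fewer cells of a type and less RNA per cell cannot be told apart.

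**Figure D1:**
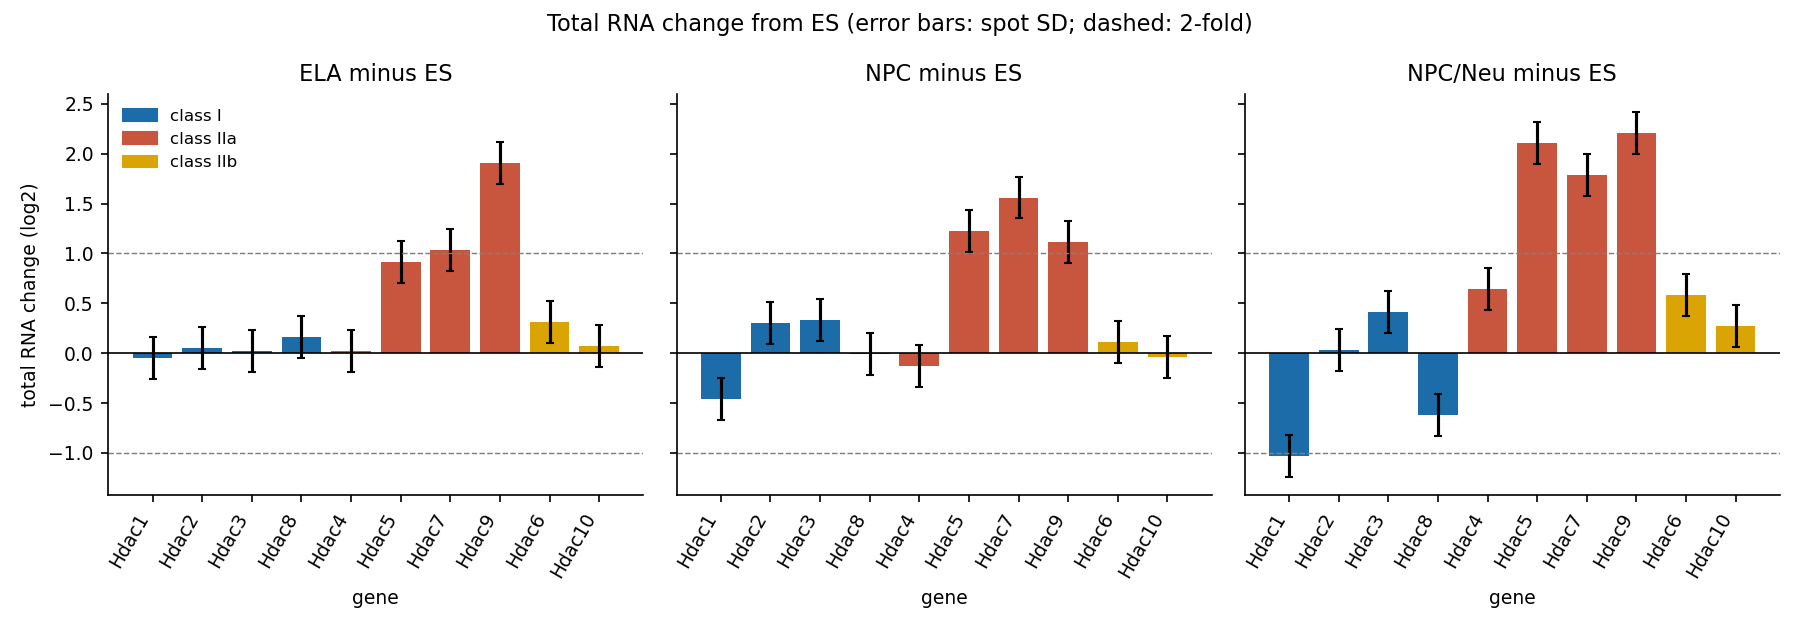
Total RNA change from ES cells (log2, y axis) of each of the 10 genes (x axis) in ELA, NPC and NPC/Neu. Bars are single array differences, error bars are the spot SD and dashed lines mark 2-fold. In NPC/Neu the class IIa genes Hdac5 (2.11), Hdac7 (1.80) and Hdac9 (2.21) stand above the other 7 genes, and Hdac1 (-1.03) is the lowest.

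Most of the early part of this difference came from class IIa. From ES to ELA, Hdac5 was higher by 0.91, Hdac7 by 1.03 and Hdac9 by 1.91, while Hdac4 differed by 0.03 and the 4 class I genes by -0.05 to 0.16, all within the spot SD. A change of at least 1 was thus seen for 2 members, Hdac7 and Hdac9, against 4.43% of all gene names, and a change of -1 or lower for 0, against 4.55%. From ELA to NPC the classes did not part in this way. Class II had a median change of -0.13 with 4 of 6 genes lower, from -0.81 (Hdac9) to 0.53 (Hdac7), and class I had a median of 0.04. In the last interval, from NPC to NPC/Neu, the 6 class II genes were all higher, by 0.23 (Hdac7) to 1.11 (Hdac9), and of the class I genes only Hdac3 was above 0, at 0.08. Of all gene names, 46.3% were higher in that interval.

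In ES cells most members were higher in Ago-RNA than in total RNA. E was above 0 in 9 of the 10 genes (and above 0 for Hdac3 too, up to 0.38, under some alternative settings), against 52.1% of all gene names, and it reached 1 in 4 of them (Hdac2, Hdac4, Hdac6 and Hdac9), against 10.3%. Hdac6 was at 0.93 with the processed signal divided by its 75th percentile (called the 75th percentile below), Hdac9 at 0.91 with normalization by cyclic loess, and Hdac7 also reached 1 with normalization within each kind of RNA. Hdac3, Hdac5, Hdac8 and Hdac10 lay within the middle 50% of all gene names (-0.44 to 0.48). Class I had a median E of 0.48 and class II of 0.91, and all gene names had 0.03. These comparisons use gene names of all lengths, although E was higher for longer transcripts. Gene names of 4000 to 5000 bases, the length of Hdac5, Hdac6, Hdac7 and Hdac9, had a middle 50% of 0.16 to 0.98. From ES to ELA, E was lower for 9 of the 10 genes, in each by more than the spot SD, against 50.5% of all gene names. The exception was Hdac3, and all 10 kept their direction under the 9 alternative settings. The median ΔE was -0.62 for class I and -0.73 for class II. For gene names of 4000 to 5000 bases the middle 50% of ΔE was -0.76 to -0.02. ΔE of -1 or lower was seen only for Hdac6, 1 of 10 against 6.52%. In ELA no member had E of 1 or more (0 of 10, against 3.66%; Hdac4 had 1.23 with normalization within each kind of RNA), and the class medians were 0.00 and -0.03. Values of E this close to 0 in ELA changed sign between settings for 6 genes, Hdac1, Hdac5, Hdac6, Hdac7, Hdac8 and Hdac10. The middle 50% of all gene names was also narrower in ELA (-0.28 to 0.26) than in ES (-0.44 to 0.48). The nuclear RNAs likewise had a median E nearer to 0 in ELA. Whether the ELA arrays separated Ago-RNA from total RNA less was not tested.

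**Figure D2:**
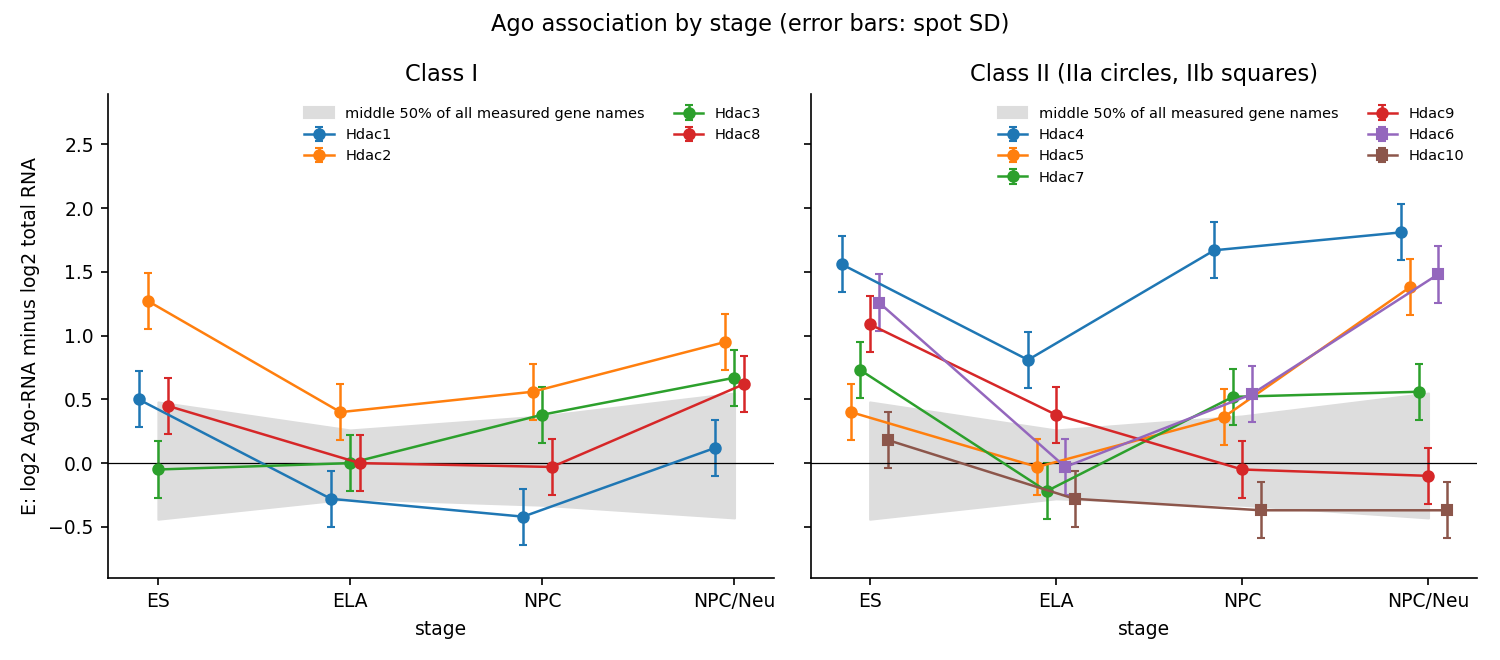
Ago association E (log2 Ago-RNA minus log2 total RNA, y axis) at the 4 stages (x axis), class I on the left and class II on the right. Points are single stages, error bars are the spot SD, and the grey band holds the middle 50% of all measured gene names. From ES to ELA 9 of the 10 lines go down. Hdac2 and Hdac4 stay above the band at all stages, Hdac4 between 0.81 and 1.81.

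After ELA the genes took different courses. In NPC only Hdac4 had E of 1 or more, 1 of 10 against 5.55% of all gene names. In NPC/Neu it was 3 of 10 (Hdac4, Hdac5 and Hdac6), against 11.8%, and 6 of 10 with normalization within each kind of RNA (also Hdac2, Hdac3 and Hdac7), and class medians were 0.64 and 0.97. From NPC to NPC/Neu all 4 class I genes had a ΔE above 0, as 52.2% of all gene names did, from 0.29 to 0.65, and 3 of the 4 were beyond the spot SD (Hdac3 was not). Class II ranged from -0.06 (Hdac9) to 1.02 (Hdac5), and Hdac5 was the only member with ΔE of 1 or more (1 of 10, against 1.98%). That value was below 1 under 4 of the 9 alternative settings, at 0.66 with the 75th percentile and with cyclic loess, 0.73 with normalization within each kind of RNA and 0.97 with the processed signal and quantile normalization.

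Hdac1, the main nuclear deacetylase together with Hdac2, had log2 total RNA signals of 14.13, 14.08, 13.67 and 13.10 from ES to NPC/Neu. Its Ago-RNA signals were 14.64, 13.80, 13.25 and 13.22 at the same stages. Both means thus ran downward. E was 0.50, -0.28, -0.42 and 0.12 in that order. The 3 probes of Hdac1 did not agree in size. Total RNA in NPC/Neu differed from ES by -0.68 at the brightest probe and by -1.05 and -1.36 at the others, and ΔE from ES to ELA was -1.16 at the brightest and -0.57 and -0.62 at the others. Ago-RNA changed by -1.29 from ES to ELA and by -0.12 from ELA to NPC at the brightest probe, while at the others it changed by -0.64 and then -0.78, and by -0.57 and then -0.77. The largest fall of total RNA, -1.36, was at the probe with 96.7% identity to the Hdac1 locus and up to 100% elsewhere. The brightest probe is the one identical to Gm10093, and with it alone the change of total RNA no longer reaches 2-fold. With cyclic loess the change of the mean was -0.90.

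Hdac2 gave the most precise values, because its only probe is printed in 10 spots, of which 8 to 10 were used per array. The SD between its spots on 1 array was 0.05 to 0.11. Log2 total RNA was 9.76, 9.81, 10.06 and 9.79 from ES to NPC/Neu. Ago-RNA was 11.03, 10.21, 10.61 and 10.75. Total RNA was therefore close to level, while Ago-RNA was highest in ES cells and lowest in ELA. E was 1.27 ± 0.03 (SE over spots) in ES and 0.40 ± 0.05 in ELA, and later 0.56 ± 0.04 and 0.95 ± 0.04. On the linear scale the Ago-RNA signal was 2.4 times that of total RNA in ES cells and 1.32 times in ELA. ΔE from ES to ELA was -0.87 with an SE over spots of 0.06, and total RNA changed by 0.05 with an SE of 0.04.

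Hdac3, a nuclear enzyme that acts within corepressor complexes, ran the other way. Log2 total RNA was 11.12, 11.14, 11.45 and 11.53 from ES to NPC/Neu, and Ago-RNA was 11.06, 11.15, 11.83 and 12.20. Both went up, Ago-RNA by 1.14 over the whole course and total RNA by 0.41. E was -0.05, 0.00, 0.38 and 0.67, so Hdac3 had the lowest E of the 10 in ES cells. Its gap of 0.23 to the next gene, Hdac10, was within the spot SD of a difference between genes.

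Hdac8, an X-linked enzyme that deacetylates the cohesin subunit Smc3, was read by its 2 coding probes. Log2 total RNA was 8.49, 8.65, 8.48 and 7.87, and Ago-RNA was 8.95, 8.65, 8.44 and 8.48. The lower total RNA in NPC/Neu (-0.63 against ES) was seen at both probes shown above, by -0.39 in exon 1 and -0.87 across exons 9 and 10. Both probes were faint. The raw total RNA signal in ES and NPC/Neu was 228 and 239 in exon 1, and 484 and 366 across exons 9 and 10. In exon 1 the fall thus appeared only after normalization. With the 75th percentile, E of Hdac8 was 0.25 in ES and 0.28 in NPC/Neu. E was 0.45, 0.00, -0.03 and 0.62 (the value in ELA was just below 0), and the higher E in NPC/Neu went with the lower total RNA while Ago-RNA was at 8.44 and 8.48 in the last 2 stages.

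**Figure D3:**
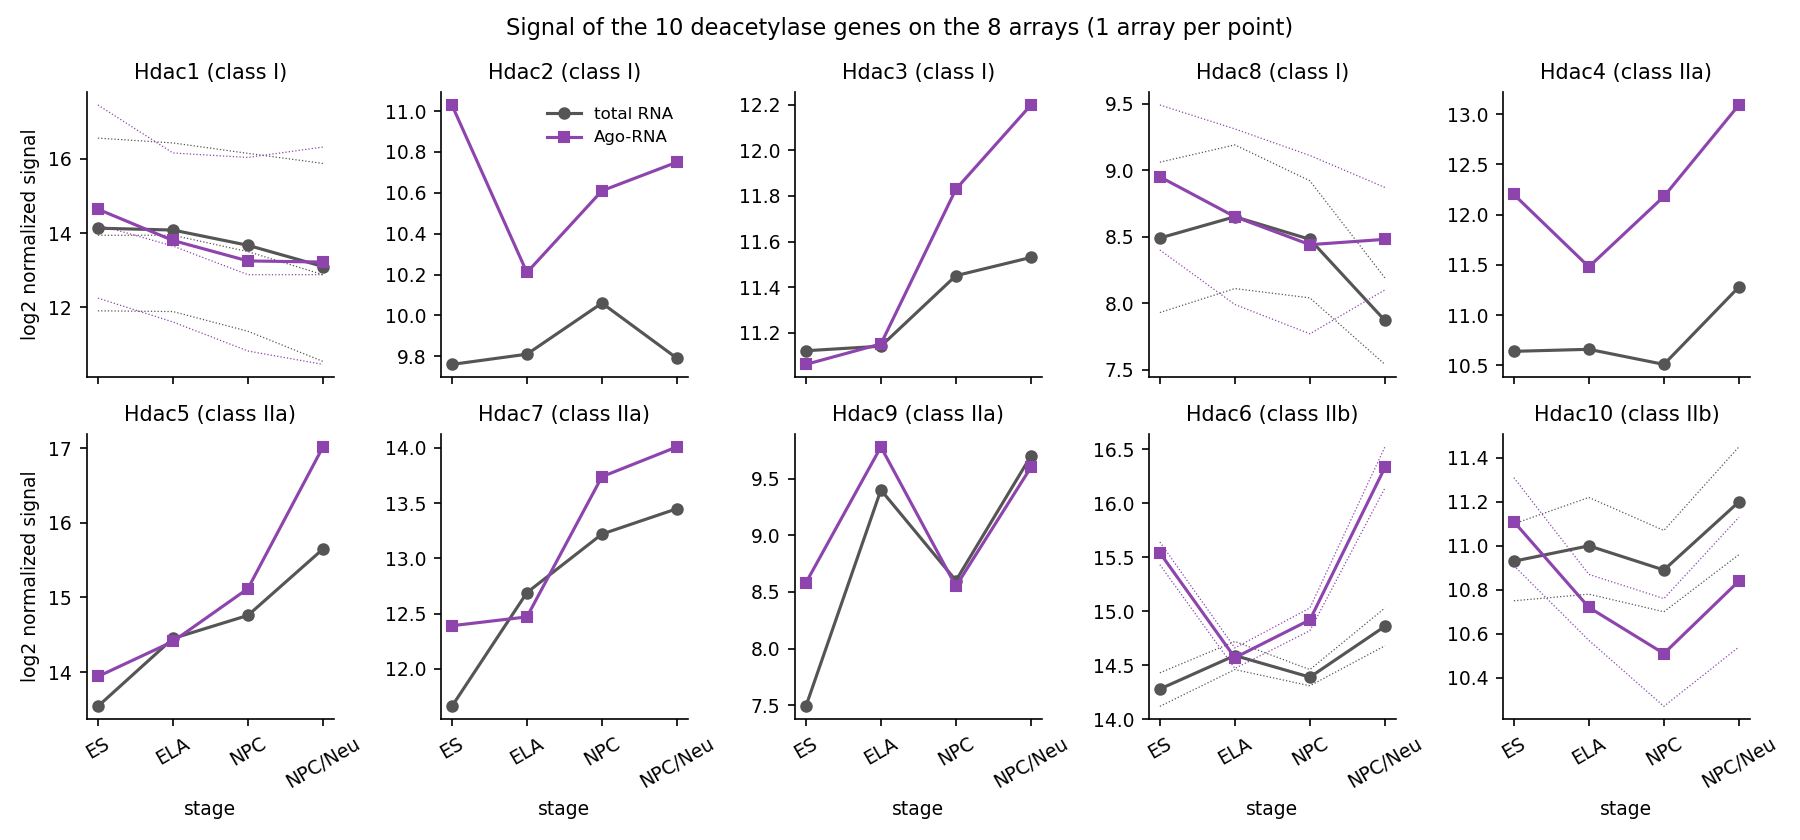
Log2 normalized signal (y axis, separate scale for each gene) of the 10 genes at the 4 stages (x axis), total RNA in grey circles and Ago-RNA in purple squares. Each point is 1 array, and dotted lines are the single probes of genes with several. The Ago-RNA lines of Hdac2, Hdac4 and Hdac6 dip at ELA, and that of Hdac5 climbs through all stages. Those of Hdac3 and Hdac7 climb after ELA and are close to level before it (0.08 each).

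Among class IIa, Hdac4 had the highest E of the 10 genes at every stage. Log2 total RNA was 10.64, 10.66, 10.51 and 11.28, and Ago-RNA was 12.20, 11.48, 12.18 and 13.09. E was 1.56, 0.81, 1.67 and 1.81, and the gap to the next gene was larger than the spot SD of such a gap each time. Hdac4 stayed the highest under the 9 alternative settings, but its gap in ES cells was within that spot SD under 3 of them, at 0.06 to 0.22, and so was that in NPC/Neu under 1 (0.27). In NPC/Neu the Ago-RNA signal was 3.5 times that of total RNA. ELA was the stage with the lowest E of Hdac4, and total RNA there differed from ES by 0.03. Another probe, which the annotation lists under a transcript identifier and which matches an Hdac4 transcript, had E of 1.2, 0.76, 1.37 and 1.12. It also was lowest in ELA.

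Hdac5, abundant in brain and muscle, showed the largest change of Ago-RNA. Log2 total RNA was 13.54, 14.45, 14.76 and 15.65, and Ago-RNA was 13.94, 14.41, 15.12 and 17.02. From ES to NPC/Neu total RNA was 4.3 times and Ago-RNA 8.44 times as high. For Ago-RNA it was 4.79 times with the 75th percentile and 5.81 times with cyclic loess. The log2 change of total RNA ranged from 1.61 to 2.3 over the settings. E was 0.40, -0.03 and 0.36 at the first 3 stages and 1.38 in NPC/Neu. Over the settings, however, E in ES ranged from 0.37 to 0.94 and ΔE from ES to NPC/Neu from 0.24 to 0.97. How far Ago-RNA rose beyond total RNA from ES to NPC/Neu thus depended on the setting.

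Hdac7, known from thymus and blood vessels, had total RNA of 11.66, 12.69, 13.22 and 13.45 and Ago-RNA of 12.39, 12.47, 13.74 and 14.01 (log2). Total RNA was higher by 1.03 in ELA than in ES while Ago-RNA was higher by 0.08 only. E therefore was 0.73 in ES and -0.22 in ELA, a ΔE of -0.96, and then 0.52 and 0.56.

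Hdac9 was faint in total RNA of ES cells. Its total RNA was 7.49, 9.40, 8.60 and 9.70 and its Ago-RNA was 8.58, 9.78, 8.55 and 9.60 (log2). Ago-RNA was thus high in ELA and NPC/Neu and low in ES and NPC. Total RNA was lowest in ES, and its value in NPC lay between those of ES and ELA. E was 1.09 in ES, then 0.38, -0.05 and -0.10. Hdac9 was the only member with a ΔE of -1 or lower from ES to NPC/Neu (1 of 10, against 4.59% of all gene names), at -1.20, and this was -0.96 with normalization within each kind of RNA and -0.89 with cyclic loess. Its probe matches the 3′ UTR of short transcripts, whose coding length of 1767 bases compares with 2862 to 3366 in the other class IIa genes. Short Hdac9 proteins of this kind are known to lack the deacetylase domain. A further probe, which the annotation lists under a transcript identifier and which matches an Hdac9 transcript, was well above background on 0 of the 8 arrays.

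In class IIb, Hdac6 deacetylates α-tubulin and binds ubiquitin. Its log2 total RNA was 14.28, 14.59, 14.39 and 14.86, and its Ago-RNA was 15.54, 14.57, 14.92 and 16.33. Ago-RNA was thus high at both ends and low in ELA, while total RNA spanned 0.58. E was 1.26, -0.03, 0.54 and 1.48. ΔE from ES to ELA was -1.28, the lowest of the 10, and it was -1.29 and -1.28 at its 2 probes, which overlap in sequence. The change of total RNA from ES to NPC/Neu, 0.58, was -0.09 with the processed signal scaled by its 75th percentile, a setting that moved the median of all gene names from -0.05 to -0.20.

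Hdac10, which deacetylates polyamines, stayed within a narrow range. Log2 total RNA was 10.93 in ES, 10.89 in NPC and 11.20 in NPC/Neu, with a change of 0.07 from ES to ELA, and Ago-RNA was 11.11, 10.72, 10.51 and 10.84. E was 0.18 in ES and -0.28, -0.37 and -0.37 at the later stages. Quantile normalization within each kind of RNA put the median E of all gene names at 0.14 to 0.20. With it the later values of Hdac10 were all above 0, at 0.13, 0.02 and 0.06.

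E moved with transcript length in all genes, and the classes differ in length. Class I transcripts have 1936 to 2038 bases and class II transcripts 2412 to 4422. Over 14455 gene names Spearman's rho of E with length was 0.594 in ES cells, and for ΔE from ES to ELA it was -0.493 over 13359 gene names. Set against gene names of like length, 6 members had E above the upper quartile in ES cells, Hdac1, Hdac2, Hdac8, Hdac4, Hdac9 and Hdac6. Hdac2 was higher than 97.5% of the gene names of 2000 to 2500 bases, whose median was 0.06, and Hdac4 was higher than 96.7% of those of 3000 to 4000 bases, whose median was 0.35. Hdac5 was below the median of its length, 0.40 against 0.56. ΔE from ES to ELA was below the lower quartile of like length for 7 members, all but Hdac3, Hdac5 and Hdac9, and Hdac6 was lower than all but 6.83% of gene names of 4000 to 5000 bases. The part of length in the differences between genes was not tested.

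**Figure D4:**
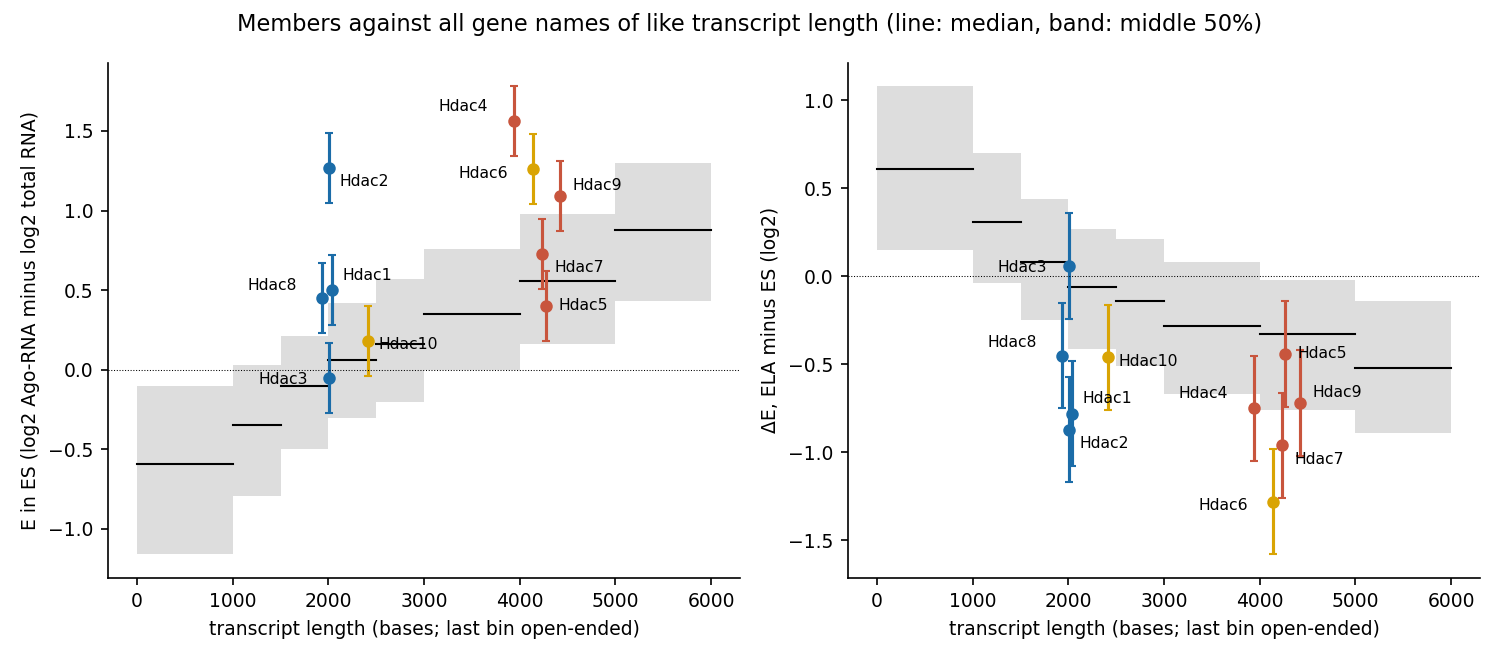
E in ES cells (left) and ΔE from ES to ELA (right), in log2 units, against transcript length in bases. Points are the 10 genes (blue class I, red class IIa, yellow class IIb) with the spot SD, black lines are medians and grey bands the middle 50% of all measured gene names in bins of length. Hdac2 (1.27) lies far above its bin on the left, and Hdac6 (-1.28) lies lowest on the right.

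The same step was read for the partners of these enzymes and for other deacetylases, from lists of genes. These lists were set against all gene names and not against those of like length, although ΔE was lower for longer transcripts. Hdac11, the only class IV enzyme, had E of 0.50 in ES and -0.21 in ELA (ΔE -0.71) and total RNA higher by 1.27 in NPC/Neu. The sirtuins, which use NAD and form class III, had a median ΔE of 0.13, and 2 of 7 were below 0 (50.5% of all gene names). They ranged from Sirt1 at -0.80 to Sirt7 at 1.56.

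Of the NuRD complex, a nucleosome remodeler that holds Hdac1 and Hdac2, all 9 listed subunits had a ΔE below 0 (50.5% of all gene names), with a median of -0.69, and 3 were at -1 or lower (6.52% of all gene names). Rbbp4 and Rbbp7, histone-binding subunits that NuRD shares with the Sin3 complex, were counted with Sin3 and had a ΔE of 0.26 and -1.2. The remodeler subunit Chd4 was the lowest, with E of 2.86 in ES and 0.64 in ELA. Its paralog Chd3 had a ΔE of -1.42 and total RNA higher by 4.55 in NPC/Neu than in ES. Of the CoREST complex, a partner of the histone demethylase Kdm1a, all 9 were below 0 as well, with a median of -0.53. Kdm1a itself had E of 1.44 in ES and -0.09 in ELA. Total RNA of 5 of the 9 CoREST genes was higher by at least 2-fold in NPC/Neu, as in 16% of all gene names, led by Rcor3 at 2.08. The values of Mbd2 (-0.06) and Hmg20b (-0.21) closed these lists at the upper end and lay within the spot SD, as did another NuRD value (-0.13). In both lists all 9 were below 0 under each of the 9 alternative settings too.

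The Sin3 complex was mixed, with 10 of 16 below 0, against 50.5% of all gene names. Its median was -0.28 (-0.08 with the 75th percentile), and values ran from Sap130 at -1.68 to Brms1 at 0.80. Its subunit Fam60a had the largest change of total RNA, -1.58. Of the 3 MiDAC genes, Trerf1 was at -1.16, Elmsan1 at -1.01 and Dnttip1 at -0.01, and 2 of the 3 were below 0 under some alternative settings.

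Among 17 measured partners and kinases of class IIa (MEF2 factors, 14-3-3 proteins and kinases), 11 were below 0, against 50.5% of all gene names. With the 75th percentile 9 were below 0. The 17 ranged from the kinase Prkd1 at -1.25 to the 14-3-3 gene Sfn at 0.96. Their median was -0.30 (-0.11 with the 75th percentile). Sfn also had the largest change of total RNA, -4.57. Of 9 substrates and cofactors of Hdac6, 6 were below 0, against the same 50.5%, with a median of -0.42. With the processed signal and 75th percentiles, however, 3 were below 0 and the median was 0.46. The lowest was Vcp, an ATPase that works with Hdac6 on ubiquitinated proteins, with E of 2.43 in ES and 0.43 in ELA, and the highest was Atat1, the tubulin acetyltransferase, with a ΔE of 0.75. Total RNA of Atat1 was higher by 2.78 in NPC/Neu.

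**Figure D5:**
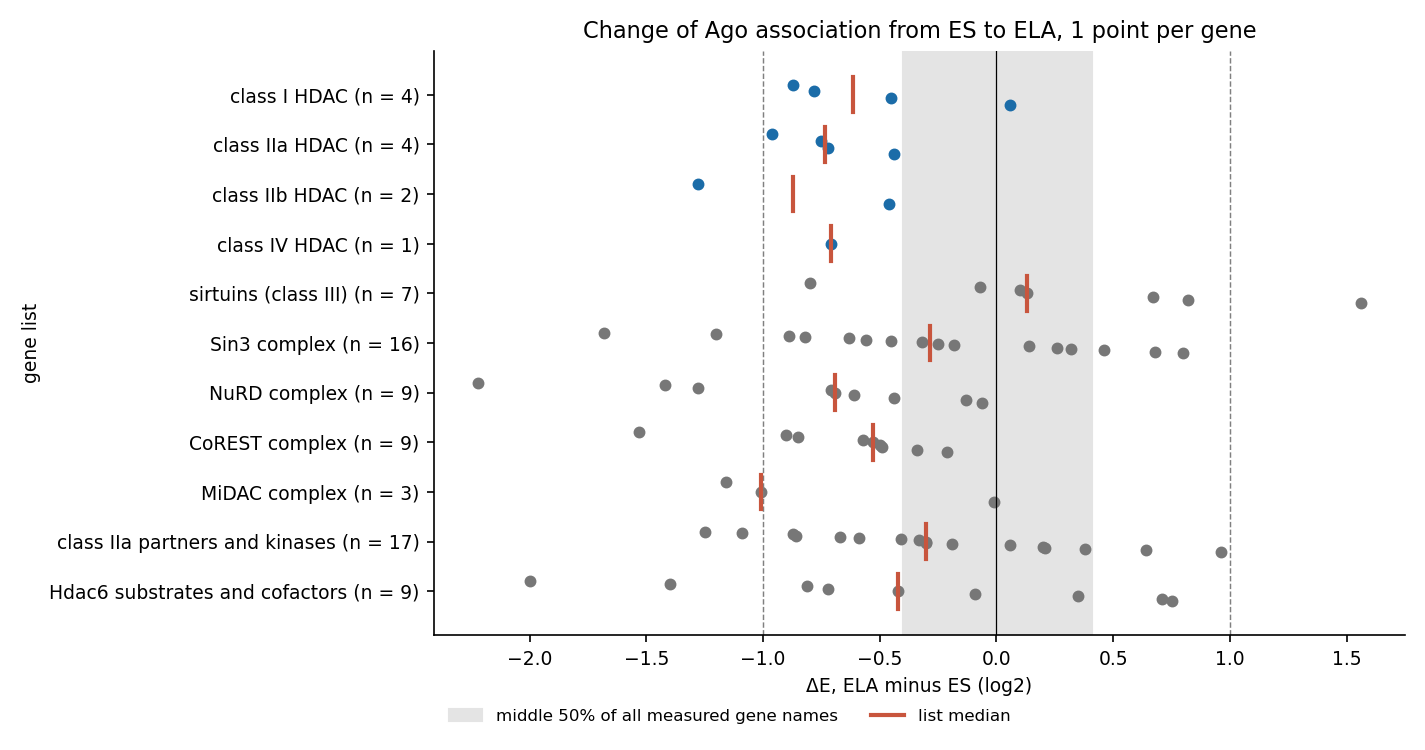
ΔE from ES to ELA (log2, x axis) of each listed gene measured on all 8 arrays, by list (y axis). Each point is 1 gene, red bars are list medians, the grey band holds the middle 50% of all measured gene names and dashed lines mark 2-fold. The 9 listed NuRD and 9 CoREST points all lie below 0, and the 7 sirtuins lie on both sides.

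Gene names whose 8 signals, centred on their mean, lay nearest to the mean of a class were also sought among the 18636 measured on all arrays. For class II these were Lss, Ptpn1 and Zfhx2, with Pearson correlations over the 8 arrays of 0.986, 0.988 and 0.982. For class I the nearest was AI480653, at 0.970, followed by a pair of array entries without a gene symbol. The 8 arrays share stages and preparations, and the correlations are a description.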

How the data were processed

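Total RNA and Ago-RNA of 4 stages were hybridized to 8 Agilent one-color arrays of 1 slide, 1 per condition. The authors deposited spot intensities (mean, local background and processed signal) without normalization between arrays. The file headers name Feature Extraction 10.7.3.1 and the submitters' processing notes version 9.1. From the mean and background intensities a normexp fit with offset 50 was made in limma 3.58.1 (R 4.3.3). After removal of control spots and of spots with outlier marks, the 8 arrays were quantile normalized on the log2 scale, and spots of a probe, then probes of a gene, were averaged. Quantile normalization does not keep differences in overall RNA recovery. Precision is limited by the number of arrays, and no test was possible.

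E and ΔE were compared with all gene names measured on every array involved, and changes of 1 kind of RNA with those measured on either array. Probes were placed in GENCODE vM1 transcripts and, with blastn 2.17.0, in the mm9 genome. Transcript length and 3′ UTR were those of the transcript with the longest coding sequence. Tables were made in Python 3.11.15 (pandas 2.3.3, numpy 2.4.6, scipy 1.17.1). Named are all 10 members, and per list the genes with the lowest and the highest ΔE from ES to ELA and with the largest change of total RNA from ES to NPC/Neu, 1 marker per list, and the 3 nearest genes per class. The members and lists were chosen with earlier results of these data known. Alternatives were offsets of 16 and 0, the processed signal with quantile normalization or scaled to the 75th percentile, quantile normalization within each kind of RNA, cyclic loess, only probes well above background, and the brightest probe or the median of probes. The normalization was tested on simulated data with 200 changed probes. Protein sequences and miR-124 were not analyzed here. One list of partner genes is not reported here.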

Additional observations from a re-analysis of the deposited data

How the results depend on the processing

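None of the values called 2-fold changed sign under the 9 alternatives, but those of Hdac1 (total RNA), Hdac5 and Hdac9 (ΔE) and Hdac6 and Hdac9 (E in ES) each fell short of 2-fold under at least 1, as given beside them. Of 1080 recomputed values of single genes, 988 stayed within the spot SD of the main value and 92 moved by more, 33 of them with quantile normalization within each kind of RNA and 23 with the 75th percentile. The number of members with ΔE of -1 or lower from ES to ELA was 2 with the processed signal and quantile normalization (Hdac9 joined Hdac6), with the brightest probe (Hdac1) and with cyclic loess (Hdac7). The class I median E in ES cells was 0.19 with the 75th percentile. With quantile normalization within each kind of RNA, the class I median E in NPC/Neu was 0.88 and the class II medians were 1.14 in ES and 1.23 in NPC/Neu. With cyclic loess the class II median change of total RNA from ES to NPC/Neu was 1.43. The cause was not tested. The 75th percentile moved the median E of all gene names in ES cells from 0.03 to -0.34, and normalization within each kind of RNA moved it to 0.14. The changes of total RNA of Hdac9 from ES to NPC/Neu ranged from 2.06 to 2.91 and those of Hdac1 from -1.54 to -0.68. At an offset of 0 the change of Hdac9 was 2.60. No paired analysis was possible because each condition has 1 array.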
